A study of Rattus norvegicus with 30 samples.

Results

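Cholesterol sensing and export were followed in cultured rat liver cells through 10 genes chosen by name: the sterol sensors Insig1 and Insig2, the transcription factor genes Srebf1 and Srebf2, the cholesterol carriers Npc1 and Npc2 with their partner Tmem97, and Nr1h3, Abca1 and Abcg1 of the liver X receptor (LXR) pathway. All probe sets that the array's annotation gives to one of these symbols were taken. That gave 18 probe sets for 9 genes, of 31042 probe sets and 14217 gene symbols in all. The transcript level of Npc1 was not analysed here. After a filter on dim signals 17 of the 18 were tested among 21249 probe sets. The probe set left out was the second of Srebf2.

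The cells were frozen hepatocytes of male Sprague Dawley rats, thawed and kept on collagen under Matrigel, and each well was measured on its own array as biotin-labelled RNA. On day 3 of culture wells received chlorpromazine hydrochloride at 0.8 µM or 20 µM or the solvent dimethyl sulfoxide (DMSO) at 1% alone, called vehicle below, and RNA was taken 24 h or 48 h later. Each of these 6 groups held 5 wells, which gave 30 arrays. Chlorpromazine is an antipsychotic drug and a cationic amphiphile, a kind of compound known to collect in lysosomes. The stated aim was to follow the response to dose and over time. The wells are called independent cultures and no separate animals are named, so p-values reflect only how far cultures of a group differ. The title of vehicle replicate 2 at 24 h reads 2 h while its time entry reads 24 h, and it was placed by the time entry. Without it 6 of the 17 probe sets again changed at 20 µM and 24 h, and 4 between the vehicle groups.

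INSIG1 and INSIG2 are membrane proteins of the endoplasmic reticulum. When sterols are plentiful they hold SCAP, the escort of the SREBP factors, in that membrane, and the SREBP factors then stay uncut and inactive. When sterols are scarce SREBP-2, the product of Srebf2, reaches the Golgi, is cut, and turns on cholesterol synthesis and uptake as well as Insig1 itself. SREBP-1, the product of Srebf1, mainly drives fatty acid synthesis, and its liver form is itself a target of LXR. LXR alpha, the product of Nr1h3, is a nuclear receptor that oxysterols activate, and it turns on the cholesterol exporters ABCA1 and ABCG1. NPC2 is a soluble lysosomal protein that takes up cholesterol freed in the lysosome and hands it to NPC1 in the lysosomal membrane. TMEM97, also known as the sigma-2 receptor, binds NPC1 and lowers its amount.

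Upstream sequences of Insig1, Insig2 and Npc2 are shown because these genes changed at both times at 20 µM, in different directions. Each is the 250 bases before the gene's start in RefSeq on build GRCr8, read along the gene's own strand. The windows lie at chr4:8057770-8058019 for Insig1, chr13:35040099-35040348 for Insig2 and chr6:110149246-110149495 for Npc2, all on the minus strand. Capitals mark the NF-Y box (CCAAT, or ATTGG on the other strand), a motif that often lies beside SREBP sites, and the CACGTG core of the motif that lysosomal gene regulators bind.
Insig1: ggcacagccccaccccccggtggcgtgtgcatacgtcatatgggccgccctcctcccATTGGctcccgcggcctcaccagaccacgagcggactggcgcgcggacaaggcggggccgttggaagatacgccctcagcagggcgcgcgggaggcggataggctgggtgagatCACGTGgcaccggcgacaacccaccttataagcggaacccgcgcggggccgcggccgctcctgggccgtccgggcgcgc
Insig2: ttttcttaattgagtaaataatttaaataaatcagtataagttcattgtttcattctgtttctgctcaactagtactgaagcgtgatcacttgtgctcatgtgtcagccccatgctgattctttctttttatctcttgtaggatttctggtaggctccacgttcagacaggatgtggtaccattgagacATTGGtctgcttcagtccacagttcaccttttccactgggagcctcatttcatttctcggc
Npc2: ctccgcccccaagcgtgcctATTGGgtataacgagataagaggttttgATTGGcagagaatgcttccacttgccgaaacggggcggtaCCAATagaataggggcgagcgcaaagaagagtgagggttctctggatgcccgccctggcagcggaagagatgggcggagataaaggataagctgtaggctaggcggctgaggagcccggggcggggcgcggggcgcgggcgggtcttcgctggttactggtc
The Insig1 window held 1 NF-Y box and 1 CACGTG core, the Insig2 window 1 NF-Y box, and the Npc2 window 3 NF-Y boxes. Of the windows not printed, that of Abca1 held a CACGTG core, and those of Srebf1, Srebf2 and Tmem97 held NF-Y boxes. Srebf1 also changed at both times on its brightest probe set, while Abca1 and Srebf2 did not pass the test at 20 µM. The same search on both strands found an NF-Y box in 34.0% of 33469 rat promoter windows of this length and a CACGTG core in 5.59%. The sterol regulatory element was searched as TCACNCCAC and the LXR element as a 16-base pattern, a half-site repeated after a spacer. These exact patterns occurred in 0.974% and 0.0717% of all windows and in none of the 10 windows searched for the set. Those windows cover 9 of the 10 genes, with Npc1 among them and no window for Abcg1. Variants of either pattern were not searched, so a window without a match may still hold such an element. A match describes letters in a window and is not a measured binding site. GC content was 72.8% in the Insig1 window, 60.8% in the Npc2 window and 40.0% in the Insig2 window.

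Signals below are log2 of the array signal, floored at 16. A difference is the log2 change ± SE from limma, a linear model over all 30 arrays, and a probe set changed where the p adjusted over all 21249 probe sets was under 0.05. Genes with several probe sets have them numbered from the brightest. Levels of different probe sets are not comparable with each other. A probe set is called dim in a group where its mean there was under 8.08. That is the 40th percentile of the signals of an array, averaged over the arrays, in log2. Median signals of the arrays ran from 379 to 448, and the mean correlation of an array with the others of its group ran from 0.950 to 0.963. The number of arrays limits the precision. Groups come in the same order in every set of array numbers in the titles, so dose and time cannot be told apart from array position.

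At 20 µM the 2 sterol sensors went opposite ways at both times: Insig1 rose and Insig2 fell. Npc2 rose and Abcg1 and Srebf1 fell, each on its brightest probe set, and at 48 h Tmem97 and Nr1h3 fell as well. At 24 h 6 of the 17 probe sets changed, 2 higher and 4 lower, beside 17.3% of all probe sets (9.10% higher and 8.24% lower). At 48 h 9 of 17 changed, 2 higher and 7 lower, beside 26.8% of all (14.4% higher and 12.4% lower). The median change of the 17 was -0.10 at 24 h and -0.29 at 48 h, against -0.01 and 0.01 over all probe sets. With arrays centred on their medians, 2335 probe sets rose and 1157 fell at 24 h, in place of 1934 and 1750, and 5 of the 17 changed. At 48 h 3363 rose and 2100 fell with this centring, in place of 3065 and 2638, and 7 of the 17 changed. In such bulk samples fewer cells of a type and less RNA per cell cannot be told apart.

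**Figure D1:**
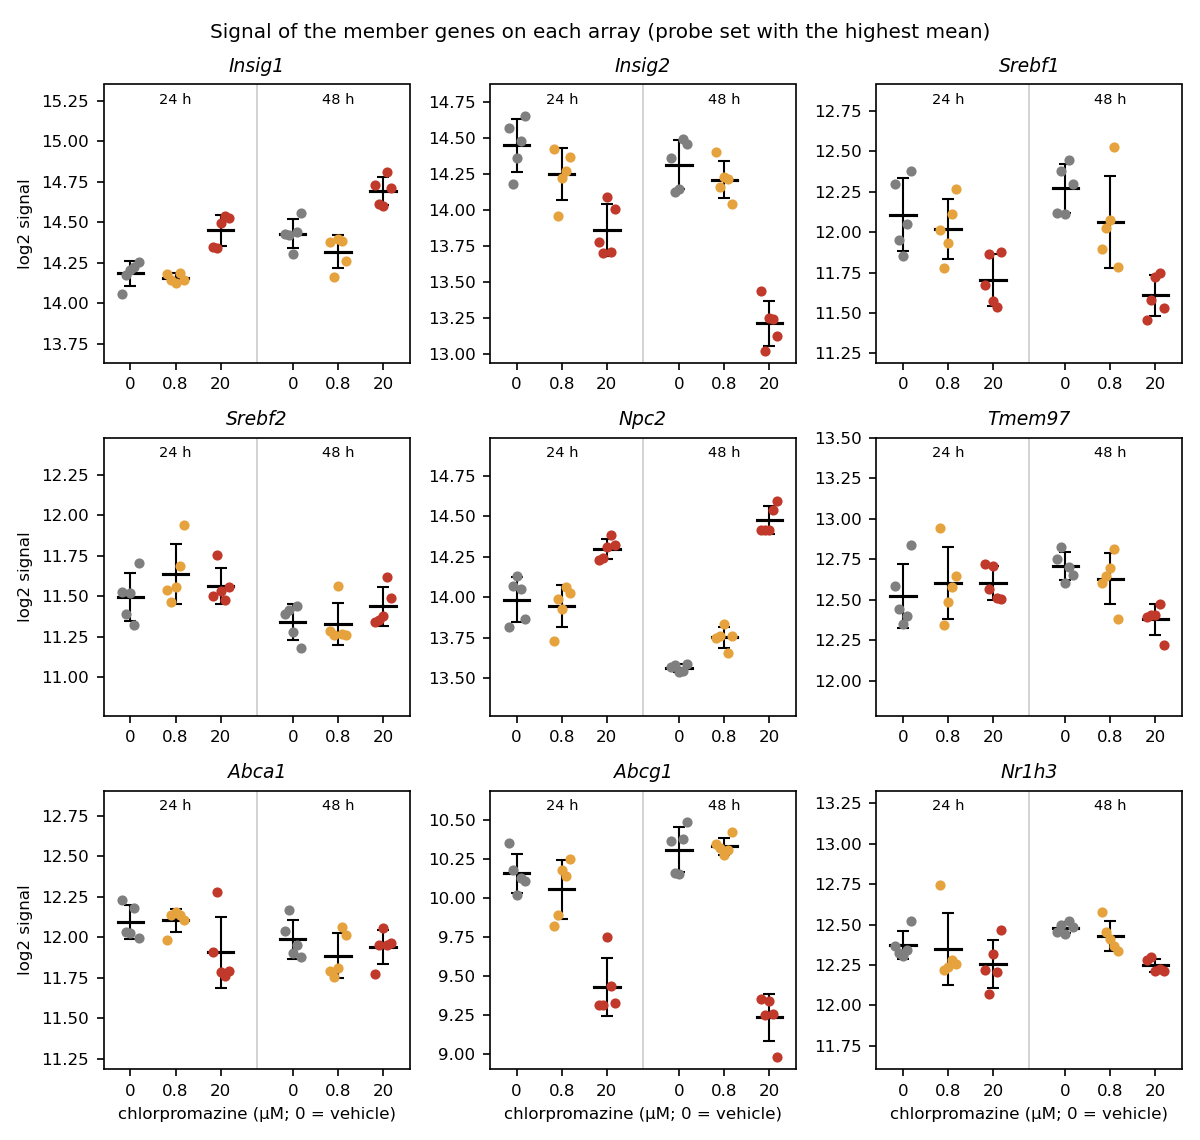
Log2 signal of the brightest probe set of each of the 9 genes (vertical axis) by chlorpromazine dose in µM (horizontal axis, 0 is vehicle) at 24 h and 48 h. Each point is 1 array, long bars are group means and whiskers are SD (n = 5); within their own panels, Insig1 and Npc2 have their highest mean and Insig2 and Abcg1 their lowest at 20 µM and 48 h.

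Insig1 was higher at 20 µM by 1.20-fold at either time, and its level in vehicle wells also rose between the times. At 24 h its probe set (1367894_at) read 14.06, 14.17, 14.21, 14.22 and 14.26 in the vehicle wells and 14.35, 14.34, 14.50, 14.54 and 14.53 at 20 µM. At 48 h it read 14.43, 14.42, 14.30, 14.44 and 14.56 in vehicle and 14.73, 14.62, 14.60, 14.81 and 14.71 at 20 µM. The 20 µM wells lay above every vehicle well of their own time, while the 20 µM wells at 24 h lay within the range of the vehicle wells at 48 h. The change was 0.27 ± 0.05 at 24 h (adjusted p = 0.000452) and 0.26 ± 0.05 at 48 h (adjusted p = 0.000271). At 0.8 µM the means were 14.16 ± 0.03 and 14.32 ± 0.10 (SD, n = 5), with changes of -0.03 ± 0.05 and -0.11 ± 0.05 that did not pass the test.

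Insig2 fell 2.14-fold at 48 h on its first probe set and 2.41-fold on its second, and both had fallen at 24 h. The second probe set (1389377_at) read 13.91, 13.73, 13.67, 13.80 and 13.98 in vehicle and 13.15, 12.99, 13.17, 12.94 and 13.07 at 20 µM at 24 h. At 48 h it read 13.94, 13.89, 13.92, 14.10 and 14.02 in vehicle and 12.82, 12.69, 12.83, 12.54 and 12.65 at 20 µM. The groups were apart at both times, and every 20 µM well at 48 h lay under every 20 µM well at 24 h. The changes were -0.75 ± 0.06 (adjusted p = 2.31e-10) and -1.27 ± 0.06 (adjusted p = 2.88e-16).

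The first Insig2 probe set (1393690_at) gave the same picture with a wider spread between wells. It read 14.57, 14.18, 14.36, 14.48 and 14.66 in vehicle and 13.78, 13.71, 14.10, 13.71 and 14.01 at 20 µM at 24 h, and the groups were 0.086 apart at their nearest wells. At 48 h the vehicle wells read 14.36, 14.13, 14.15, 14.49 and 14.46 and the 20 µM wells 13.44, 13.02, 13.25, 13.24 and 13.13, again with no overlap. The changes were -0.59 ± 0.10 (adjusted p = 3.32e-05) and -1.10 ± 0.10 (adjusted p = 1.24e-10). The 2 probe sets correlated at 0.93 over the 30 arrays, which share the dose and time groups.

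Among the transcription factor genes, Srebf1 fell on its brighter probe set and Srebf2 did not pass the test. Srebf1 probe set 1 (1388426_at) read 12.30, 11.95, 11.85, 12.05 and 12.38 in vehicle and 11.67, 11.86, 11.57, 11.53 and 11.88 at 20 µM at 24 h. At 48 h it read 12.12, 12.38, 12.11, 12.45 and 12.30 in vehicle and 11.46, 11.58, 11.73, 11.75 and 11.53 at 20 µM. The wells overlapped at 24 h and were apart at 48 h. The fall was 1.32-fold at 24 h (-0.40 ± 0.11, adjusted p = 0.0118) and 1.58-fold at 48 h (-0.66 ± 0.11, adjusted p = 2.92e-05). The 24 h call was lost without vehicle replicate 5 (-0.33 ± 0.12, adjusted p = 0.0501) and with arrays centred on their medians (-0.34 ± 0.12, adjusted p = 0.053).

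Srebf1 probe set 2 (1371104_at) had means of 10.80 ± 0.35 in vehicle and 10.57 ± 0.14 at 20 µM at 24 h (SD, n = 5). At 48 h they were 10.79 ± 0.24 and 10.50 ± 0.17. Its changes of -0.22 ± 0.14 and -0.29 ± 0.14 had adjusted p = 0.324 and 0.135, so the sign matched the first probe set and the size did not pass the test. Which Srebf1 transcripts each probe set reads was not analysed here, so the SREBP-1a and SREBP-1c forms cannot be told apart.

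Srebf2 probe set 1 (1371979_at) had means of 11.49 ± 0.15 and 11.56 ± 0.11 at 24 h and 11.34 ± 0.11 and 11.44 ± 0.12 at 48 h in vehicle and 20 µM wells (SD, n = 5). The changes of 0.07 ± 0.09 and 0.10 ± 0.09 had adjusted p = 0.667 and 0.466, and the wells overlapped at both times. Srebf2 probe set 2 (1377489_at) was dim in every group, with group means from 5.37 to 6.60, and was not tested.

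Npc2 showed the largest rise of the set, and its vehicle level moved the other way over time. The probe set (1398892_at) read 13.82, 14.07, 14.13, 14.05 and 13.86 in vehicle and 14.23, 14.24, 14.31, 14.38 and 14.32 at 20 µM at 24 h. At 48 h the vehicle wells read 13.57, 13.58, 13.54, 13.54 and 13.59 and the 20 µM wells 14.41, 14.41, 14.42, 14.54 and 14.60. All 20 µM wells lay above all vehicle wells at each time, and the vehicle wells at 48 h lay under those at 24 h. The rise was 1.24-fold at 24 h (0.31 ± 0.06, adjusted p = 0.000166) and 1.88-fold at 48 h (0.91 ± 0.06, adjusted p = 7.44e-14). Against the 24 h vehicle mean of 13.99 ± 0.14, the 20 µM mean at 48 h was 14.48 ± 0.09.

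Tmem97 fell at 48 h on both of its probe sets and did not pass the test at 24 h. At 48 h probe set 1 (1372156_at) read 12.75, 12.83, 12.60, 12.70 and 12.66 in vehicle and 12.39, 12.40, 12.40, 12.48 and 12.22 at 20 µM, with no overlap. The fall was 1.26-fold (-0.33 ± 0.09, adjusted p = 0.00577). At 24 h its means were 12.52 ± 0.20 in vehicle and 12.60 ± 0.10 at 20 µM (SD, n = 5, change 0.08 ± 0.09, adjusted p = 0.638).

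Probe set 2 of Tmem97 (1396086_at) read 11.93, 11.87, 11.80, 12.07 and 11.88 in vehicle and 11.95, 11.65, 11.52, 11.59 and 11.47 at 20 µM at 48 h, and the wells overlapped. It fell 1.21-fold (-0.28 ± 0.10, adjusted p = 0.0355), after a change of 0.17 ± 0.10 at 24 h (adjusted p = 0.287). The 48 h call was lost without vehicle replicate 1 or 4 (adjusted p = 0.0609 and 0.103), without 20 µM replicate 2, 3, 4 or 5 (adjusted p from 0.0535 to 0.104), and with arrays centred on their medians (adjusted p = 0.149).

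**Figure D2:**
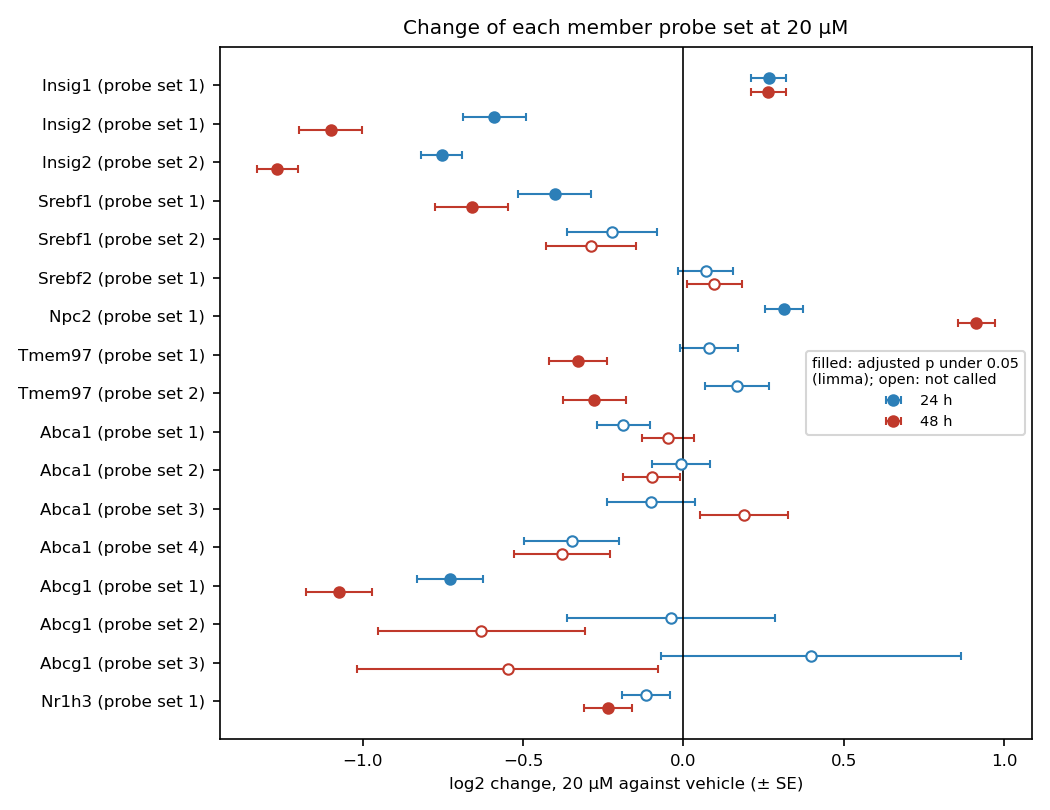
Log2 change at 20 µM against vehicle (horizontal axis, ± SE) of the 17 probe sets tested (vertical axis) at 24 h in blue and 48 h in red. Filled points passed the limma test at an adjusted p under 0.05; Insig2 and Abcg1 lie farthest to the left and Npc2 farthest to the right at 48 h.

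Among the LXR genes, the exporter Abcg1 fell at both times, Nr1h3 fell at 48 h, and none of the 4 Abca1 probe sets passed the test at 20 µM. Abcg1 probe set 1 (1368103_at) read 10.35, 10.18, 10.02, 10.13 and 10.11 in vehicle and 9.32, 9.31, 9.75, 9.44 and 9.33 at 20 µM at 24 h. At 48 h it read 10.36, 10.16, 10.15, 10.38 and 10.48 in vehicle and 9.35, 9.25, 9.34, 9.25 and 8.98 at 20 µM. The groups were apart at both times. The fall was 1.66-fold at 24 h (-0.73 ± 0.10, adjusted p = 2.51e-06) and 2.11-fold at 48 h (-1.07 ± 0.10, adjusted p = 5.34e-10).

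The other Abcg1 probe sets were near or below the level called dim and did not pass the test. Probe set 2 (1373995_at) had means of 8.16 ± 0.06 in vehicle and 7.53 ± 0.26 at 20 µM at 48 h (SD, n = 5), a difference of -0.63 ± 0.32 with adjusted p = 0.163, though the wells did not overlap. Probe set 3 (1387054_at) had differences of 0.40 ± 0.47 at 24 h and -0.55 ± 0.47 at 48 h (adjusted p = 0.649 and 0.447). The statement on Abcg1 therefore rests on 1 of its 3 probe sets, whose correlation with the others over the 30 arrays was 0.17 and 0.22.

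Nr1h3 (1387365_at) read 12.46, 12.50, 12.44, 12.52 and 12.49 in vehicle and 12.28, 12.30, 12.21, 12.22 and 12.21 at 20 µM at 48 h, with no overlap. The fall was 1.18-fold (-0.23 ± 0.08, adjusted p = 0.0189), and it was not called with arrays centred on their medians (-0.19 ± 0.09, adjusted p = 0.124). At 24 h the means were 12.37 ± 0.09 and 12.26 ± 0.15 (SD, n = 5), and the change of -0.12 ± 0.08 did not pass the test (adjusted p = 0.344).

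Abca1 probe set 1 (1382431_at) differed by -0.19 ± 0.08 at 24 h and -0.05 ± 0.08 at 48 h, with adjusted p = 0.126 and 0.744. At 24 h the 20 µM wells read 11.91, 12.28, 11.79, 11.76 and 11.79, beside 12.23, 12.03, 12.02, 12.18 and 11.998 in vehicle. The second 20 µM well was above all vehicle wells, and without it the difference was -0.28 ± 0.07 (adjusted p = 0.00583). Probe set 2 (1383355_at) differed by -0.01 ± 0.09 and -0.10 ± 0.09 at the 2 times, and probe set 3 (1384381_at) by -0.10 ± 0.14 and 0.19 ± 0.14. Probe set 4 (1394490_at) differed by -0.35 ± 0.15 and -0.38 ± 0.15, with adjusted p = 0.113 and 0.0586. At 48 h its wells read 10.09, 9.62, 9.93, 9.81 and 9.87 in vehicle and 9.37, 9.43, 9.55, 9.26 and 9.82 at 20 µM, which overlap. The 24 h difference passed the test with array number as a covariate (adjusted p = 0.0472). The 48 h difference passed under 7 of the alternatives, among them leaving out vehicle replicate 2 (adjusted p = 0.038) or 20 µM replicate 5 (adjusted p = 0.0258). The 4 probe sets correlated with each other at 0.11 to 0.59 over the 30 arrays.

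The labelled cell type was checked against marker genes. The hepatocyte markers Alb, Apoa1, Ttr, Serpina1 and Tat had group means from 13.999 to 16.7, and of these 5 none changed at 24 h and Tat alone fell at 48 h at 20 µM (-0.43 ± 0.07, adjusted p = 2.51e-05). With quantile normalization 3 of the 5 fell at 48 h. Npc2, Abca1, Abcg1 and Nr1h3 are also known to be expressed in macrophages. Of 10 measured markers of Kupffer cells or macrophages 9 were tested, and Adgre1, a defining marker, was dim in all groups. None of the other 9 was dim in all groups. Among them, group means ran from 8.32 to 9.80 for Clec4f and from 8.90 to 10.30 for C1qb. At 20 µM Cd14 and Lyz2 of the 9 fell at 24 h, and Cd14, Lyz2 and C1qa fell and Cd68 rose at 48 h. Cd163, Clec4f, Csf1r, C1qb and C1qc did not pass the test at either time. The marker Cd68, which encodes a lysosomal protein, rose by 1.44 ± 0.13 at 48 h (adjusted p = 8.21e-11), whereas Lyz2 fell (-0.79 ± 0.07, adjusted p = 5.94e-11).

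The summed linear signal of the 10 macrophage markers ran from 30183 to 32478 in vehicle wells at 24 h and from 25380 to 29236 at 20 µM, and at 48 h from 28938 to 31786 in vehicle and from 19963 to 22366 at 20 µM. At 0.8 µM it ran from 28710 to 30797 at 24 h and from 25322 to 28724 at 48 h. The sum was thus lower at 20 µM at both times with no overlap, as Abcg1 was, while Npc2 was higher. Cd14 and Lyz2 made up 71.3% to 86.3% of the sum in every well. The sum of the other 8 markers, a choice made after seeing the data, overlapped at 24 h, with 6471 to 8657 in vehicle and 6601 to 7695 at 20 µM. At 48 h it also overlapped, with 4106 to 5644 in vehicle and 4820 to 5888 at 20 µM, so the lower total stood on Cd14 and Lyz2. In vehicle wells 4 of these 9 markers were lower at 48 h than at 24 h and none higher, as Npc2 also was. Their part in the results on Npc2, Abcg1, Abca1 and Nr1h3 was not tested. Of the markers of stellate, endothelial and bile duct cells that were tested (5, 4 and 2), none rose at 20 µM. The bile duct marker Krt19 fell at 24 h, and none changed at 48 h. At 24 h the Krt19 means were 8.16 ± 0.44 in vehicle and 6.88 ± 0.99 at 20 µM (SD, n = 5), where it was dim. The other bile duct marker tested, Epcam, had group means from 13.12 to 13.56.

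The 20 µM effect itself was compared between the times, a difference of differences over 4 groups. Of the 17 probe sets 3 changed, 1 upward and 2 downward, beside 2.72% of all (1.09% upward and 1.63% downward). Npc2 gained 0.60 ± 0.08 (adjusted p = 2.35e-05). Between the times its vehicle mean fell from 13.99 to 13.56, and its 20 µM mean rose from 14.30 to 14.48. Insig2 lost a further -0.51 ± 0.14 and -0.51 ± 0.09 on its 2 probe sets (adjusted p = 0.0377 and 0.000733). With arrays centred on their medians the first did not pass (-0.53 ± 0.17, adjusted p = 0.132). The second Insig2 probe set kept this call when each array was left out in turn. The first lost it (adjusted p from 0.0514 to 0.0924) without vehicle replicate 2, 3 or 4 or 20 µM replicate 3 or 5 at 24 h, and without vehicle replicate 1, 4 or 5 or 20 µM replicate 2, 4 or 5 at 48 h. Over all probe sets 231 moved upward and 346 downward, and with arrays centred on their medians 84 and 207.

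For Insig1 the difference between the times was -0.00 ± 0.08 (adjusted p = 0.997), and for Abcg1 probe set 1 it was -0.35 ± 0.14 (adjusted p = 0.265). Tmem97 gave -0.41 ± 0.13 and -0.44 ± 0.14 on its 2 probe sets, with adjusted p = 0.0902 and 0.0923. Neither passed the test. Without vehicle replicate 5 at 24 h it passed on both probe sets (adjusted p = 0.0166 and 0.0195), and without 20 µM replicate 1 at 48 h on the second (adjusted p = 0.0287).

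In vehicle wells 4 of 17 probe sets changed between 24 h and 48 h, 1 higher and 3 lower, beside 8.91% of all (4.64% higher and 4.27% lower). Insig1 rose 1.19-fold (0.25 ± 0.05, adjusted p = 0.00256) and Npc2 fell 1.34-fold (-0.42 ± 0.06, adjusted p = 7.52e-06). Abca1 probe set 3 fell from 10.15 ± 0.12 to 9.57 ± 0.17 (SD, n = 5) with no overlap (-0.57 ± 0.14, adjusted p = 0.00564). Probe set 2 fell from 11.59 ± 0.14 to 11.16 ± 0.18 with overlapping wells (-0.43 ± 0.09, adjusted p = 0.00135). Probe sets 1 and 4 differed by -0.11 ± 0.08 and 0.02 ± 0.15 and did not pass the test. These vehicle wells are also the controls of the dose comparisons.

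At 0.8 µM few probe sets changed. At 24 h none of the 17 passed the limma test and 3 had an unadjusted p under 0.05, beside 0.282% of all probe sets called (60 of 21249) and 2126 at an unadjusted p under 0.05. At 48 h 1 of 17 changed, beside 1.80% of all (0.809% higher and 0.988% lower). This was Insig2 probe set 2, which read 13.94, 13.89, 13.92, 14.10 and 14.02 in vehicle and 13.80, 13.69, 13.66, 13.75 and 13.61 at 0.8 µM, with no overlap. It fell 1.21-fold (-0.27 ± 0.06, adjusted p = 0.0198), while the first probe set differed by -0.11 ± 0.10 (adjusted p = 0.75) with overlapping wells. The call was lost without 0.8 µM replicate 3 or 5 (adjusted p = 0.0543 and 0.0727), without vehicle replicate 4 (adjusted p = 0.075) and with arrays centred on their medians (adjusted p = 0.172).

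For Npc2 the 0.8 µM wells at 48 h read 13.75, 13.76, 13.83, 13.66 and 13.76, all above the vehicle wells and all below the 20 µM wells. The difference from vehicle was 0.19 ± 0.06 and did not pass the test (adjusted p = 0.0945). Abcg1 probe set 1 had means of 10.05 ± 0.19 and 10.33 ± 0.05 at 0.8 µM at 24 h and 48 h (SD, n = 5), with differences from vehicle of -0.10 ± 0.10 and 0.02 ± 0.10 (adjusted p = 0.811 and 0.972). Both dose comparisons at a time share their 5 vehicle wells.

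The other probe sets did not pass the test at 0.8 µM. Srebf1 probe set 1 had means of 12.02 ± 0.18 and 12.06 ± 0.28 at 24 h and 48 h (SD, n = 5), with differences of -0.09 ± 0.11 and -0.21 ± 0.11. Nr1h3 differed by -0.02 ± 0.08 and -0.05 ± 0.08, and Tmem97 probe set 1 by 0.08 ± 0.09 and -0.08 ± 0.09. The 4 Abca1 probe sets lay between -0.15 and 0.01 at 24 h and between -0.23 and 0.05 at 48 h. Abcg1 probe set 3 had the widest difference, 1.08 ± 0.47 at 24 h, with adjusted p = 0.424 on a signal that was dim in vehicle.

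The order of the 6 group means differed between the genes. For Npc2 it ran upward from vehicle at 48 h through 0.8 µM at 48 h, 0.8 µM at 24 h, vehicle at 24 h and 20 µM at 24 h to 20 µM at 48 h, and wells of neighbouring groups overlapped from 0.8 µM at 48 h up to vehicle at 24 h. For Insig2 probe set 2 it ran upward from 20 µM at 48 h through 20 µM at 24 h, 0.8 µM at 24 h, 0.8 µM at 48 h and vehicle at 24 h to vehicle at 48 h, and neighbours overlapped from 0.8 µM at 24 h upward. For Abcg1 probe set 1 the lowest were 20 µM at 48 h and then 20 µM at 24 h, whose wells overlapped, and both lay under all other groups. For Insig1 the highest was 20 µM at 48 h, apart from 20 µM at 24 h, and all other neighbours in the order overlapped.

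The genes around these members were taken from 5 lists of known pathway genes, each with its brightest probe set. Over all probe sets the medians at 20 µM were -0.01 and 0.01, and 17.3% and 26.8% changed. A refit with 1 probe set per gene, the nearer comparison for the lists, gave larger shares. It called 2733 of 11513 at 24 h (1534 higher and 1199 lower) and 4051 at 48 h (2339 higher and 1712 lower). Of 14 listed targets of SREBP-2 10 were measured, and 6 rose and none fell at 24 h at 20 µM, with a median change of 0.35, and 5 rose and 2 fell at 48 h, with a median of 0.20. Cyp51, the lanosterol demethylase, rose at both times (1.00 ± 0.09 and 0.73 ± 0.09, adjusted p = 4.53e-10 and 7.02e-08). Sqle, the squalene epoxidase, rose by 0.42 ± 0.08 and 0.42 ± 0.08, and Fdps, the farnesyl diphosphate synthase, by 0.50 ± 0.07 and 0.39 ± 0.07. Dhcr7, a late reductase of the same route, fell at 48 h (-0.77 ± 0.14, adjusted p = 4.85e-05) after -0.32 ± 0.14 at 24 h (adjusted p = 0.12). Without vehicle replicate 2, the well whose title and time entry differ, 5 of the 10 rose at 24 h. Insig1, itself known as an SREBP target, rose at the same times, and Srebf2 did not pass the test.

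Of 8 listed genes for the retention and cutting of SREBP 7 were measured, and none changed at 24 h, where the list's median was 0.05, and 1 rose and 3 fell at 48 h, with a median of -0.15. Mbtps2, one of the proteases that cut SREBP, rose by 0.42 ± 0.07 at 48 h (adjusted p = 8.18e-06). Rnf139, a ubiquitin ligase that binds INSIG proteins, differed by -0.40 ± 0.07 at 48 h (adjusted p = 1.44e-05). Erlin1 and Erlin2, membrane proteins that take part in sterol control of SREBP, fell by smaller amounts, with values of -0.18 ± 0.07 and -0.15 ± 0.05 (adjusted p = 0.0403 and 0.0232). With arrays centred on their medians 1 of these 7 genes fell at 48 h in place of 3.

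Of 14 listed partners and targets of LXR 10 were tested, and 2 fell and none rose at 24 h, and 3 fell and none rose at 48 h, with medians of -0.18 and -0.13. With quantile normalization 4 fell at each time. Abcg5, part of the pump that puts cholesterol into bile, fell at both times (-0.53 ± 0.18 and -0.77 ± 0.18, adjusted p = 0.0333 and 0.000897). Scd, the stearoyl-CoA desaturase, which SREBP-1 also drives, fell at both times (-0.31 ± 0.06 and -0.59 ± 0.06, adjusted p = 0.000249 and 2.27e-09). Smpdl3a, a phosphodiesterase, differed by -0.20 ± 0.07 at 24 h (adjusted p = 0.059) and fell at 48 h (-0.32 ± 0.07, adjusted p = 0.000985). Nr1h2, which encodes LXR beta, differed by 0.02 ± 0.10 and -0.08 ± 0.10 (adjusted p = 0.946 and 0.597).

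Of 11 listed genes for cholesterol handling in lysosomes 9 were measured, and 2 rose and 3 fell at 24 h and 4 rose and 3 fell at 48 h, with medians of 0.03 and 0.07. Scarb2, a lysosomal membrane protein, rose by 0.51 ± 0.07 and 0.59 ± 0.07, and Osbp, an oxysterol binding protein, by 0.31 ± 0.08 and 0.35 ± 0.08. Lamp2, a main protein of the lysosomal membrane, rose at 48 h by 0.27 ± 0.05 (adjusted p = 5.81e-05). Rab7a, a small GTPase of late endosomes, fell at both times (-0.27 ± 0.08 and -0.62 ± 0.08, adjusted p = 0.0113 and 8.23e-08). With arrays centred on their medians 2 of the 9 fell at each time in place of 3. Npc2 rose at both times, and the genes of this list moved in either direction.

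Of 4 listed genes for cholesterol esters 3 were measured, and Nceh1, a cholesterol ester hydrolase, rose by 0.55 ± 0.09 and 0.45 ± 0.09. Lcat, the plasma enzyme that esterifies cholesterol, fell at both times (-0.65 ± 0.06 and -1.13 ± 0.06, adjusted p = 2.31e-10 and 1.3e-16). Soat1, dim in all groups but 20 µM at 48 h, did not pass the test at either time. The medians of the list were -0.07 and 0.31, and the first turned to 0.01 with quantile normalization.

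**Figure D3:**
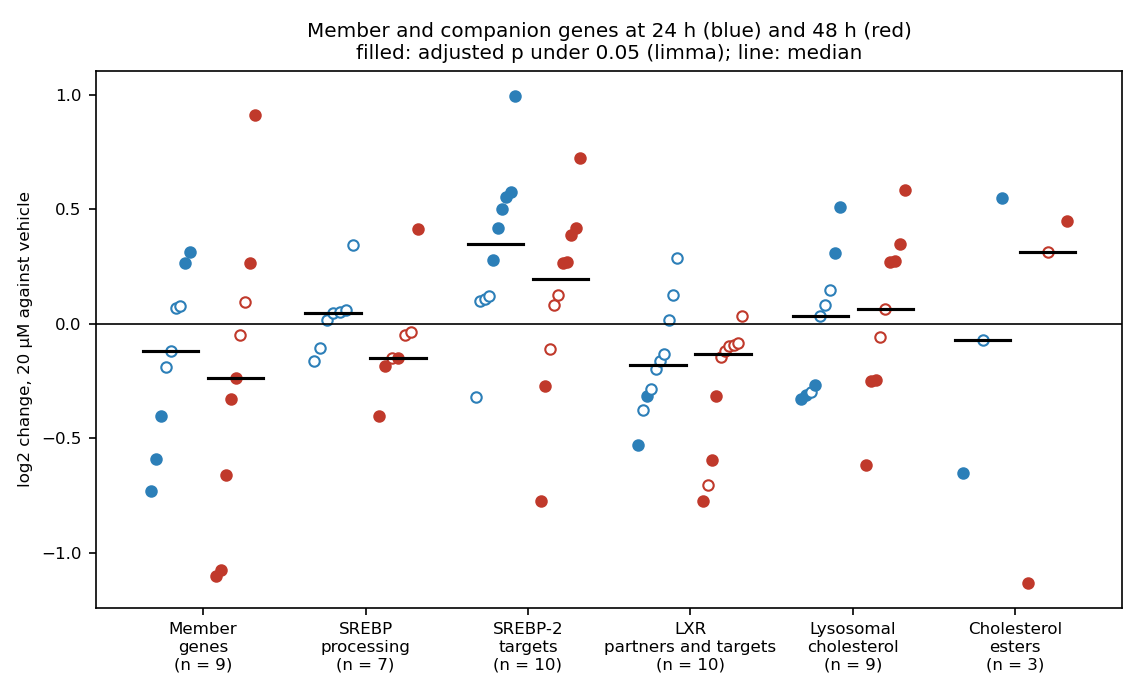
Log2 change at 20 µM against vehicle (vertical axis) of each gene's brightest probe set, at 24 h in blue and 48 h in red, for the 9 genes of the set and the 5 lists around them (horizontal axis). Filled points passed the limma test and lines are list medians; the SREBP-2 targets have the highest median at 24 h (0.35), and the set itself spreads from Insig2 and Abcg1 below to Npc2 above at 48 h.

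The genes whose pattern over the 30 arrays was most like that of Insig2 and Abcg1 were looked for among the brightest probe sets of 11370 other genes. The measure was Pearson's r of log2 signals, over arrays that share the same dose and time groups. For Insig2 they were Tst, a mitochondrial thiosulfate sulfurtransferase (0.957), F11r, a junction protein (0.953), and Acat1, a mitochondrial acetyl-CoA acetyltransferase (0.951). Their changes at 20 µM were -0.43 and -0.55 for Tst, -0.18 and -0.31 for F11r and -0.41 and -0.73 for Acat1 at 24 h and 48 h. For Abcg1 they were Sorbs2, an adaptor protein of the cytoskeleton (0.945), Decr1, a reductase of mitochondrial fatty acid oxidation (0.940), and Ccn2, a matrix-associated growth factor (0.939). Their changes were -0.40 and -0.95 for Sorbs2, -0.59 and -0.96 for Decr1 and -1.31 and -2.14 for Ccn2.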

How the data were processed

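The deposited values are array intensity (signal) per probe set, made by the authors with MAS5 per the submitters' processing notes. Its version and settings are not given in the sources used here. A floor of 16 was set (3.86% of values lay under it), log2 was taken, and nothing more was normalized. A probe set was kept if on 5 or more arrays it exceeded that array's 40th percentile. A single linear model with a mean for each group was fitted to the 30 arrays in limma 3.58.1 (R 4.3.3), with trended eBayes, and p-values were adjusted by Benjamini-Hochberg within each comparison over all kept probe sets. The fit was tested on simulated data.

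Names came from the platform annotation. All 18 probe sets had a single symbol, current by Entrez identifier. Of the array's probe sets 20826 had 1 symbol, 436 several and 9780 none. Promoter windows are RefSeq's on GRCr8. The genes of the set and the lists were chosen with earlier results of these data known. Text names every gene of the set, up to 4 changed genes of each list with the largest change at 20 µM and 48 h, and for the 2 genes of the set with the largest such change the 3 other genes closest in pattern. Nr1h2, Soat1 and the cell type markers were named outside this rule. Alternatives covered the floor, filter, normalization, spread model, array weights, arrays fitted, array order, sets of array numbers, probe set choice, threshold and each array left out. Each gene is described at the level of its transcript.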

Additional observations from a re-analysis of the deposited data

Results flagged for a closer look

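The 20 µM effect differed between 24 h and 48 h by a test of that difference (limma) for Insig2 and Npc2. The differences were -0.51 on each of the 2 Insig2 probe sets and 0.60 for Npc2. For Npc2 the vehicle mean fell from 13.99 to 13.56 between the times, and the 20 µM mean rose from 14.30 to 14.48. For 10 of the 108 sets of 5 wells, 1 well lay far from the rest, its gap to the nearest well divided by the group's range being above 0.71. Chance gives about 1 in 20 such sets. For Abcg1 probe set 1 the ratio was 0.717 for the third 20 µM well at 24 h, which was high, and 0.720 for the fifth at 48 h, which was low. For Nr1h3 it was 0.712 for the fifth vehicle well and 0.889 for the first 0.8 µM well at 24 h, both high.

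For Abca1 probe set 1 the ratio was 0.72 for the first 0.8 µM well at 24 h, which was low, and 0.716 for the second 20 µM well at 24 h, which was high. For Srebf2 probe set 1 it was 0.717 for the second 20 µM well at 24 h and 0.925 for the third 0.8 µM well at 48 h, and for the dim probe set 2 it was 0.742 for the third 0.8 µM well at 24 h and 0.739 for the first vehicle well at 48 h, all high.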

How the results depend on the processing

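No called value of the set reversed under any alternative. Of 23 called values 18 kept their call under all of them, and the other 5 lost it in 36 of the 552 refits run on called values; their values with centred arrays or without 1 array stand beside the results. Of 79 values not called, 6 gained a call in 16 of 1904 refits. At an adjusted p under 0.01, 2374 probe sets were called at 20 µM and 24 h (3684 at 0.05), 9 at 0.8 µM and 24 h (60), 133 at 0.8 µM and 48 h (382), 1027 between the vehicle times (1893) and 239 for the difference between the times (577). The count of 60 became 34 without a filter, 106 at the 60th percentile, 4 with arrays centred on their medians (3 higher and 1 lower, against 27 and 33), 13 without a trend, 95 with 1 probe set per gene and 6 with only the groups compared. The count of 382 became 160 with centred arrays and 221 without a trend, and that of 577 became 291 with centred arrays. In the set the 1 call at 0.8 µM and 48 h became 0 with centred arrays, without a trend, with 1 probe set per gene and at 0.01. The 4 calls between vehicle times became 2 with 1 probe set per gene, and the 3 for the difference between the times became 5 with array weights. Leaving out 1 array gave 12 to 124 calls at 0.8 µM and 24 h, 199 to 370 at 0.8 µM and 48 h, 0 to 1 in the set at 0.8 µM and 48 h, and 2 to 5 in the set for the difference between the times. The titles number the arrays in 5 sets of the 6 groups. Arrays of 1 set deviated from their group means with correlations of -0.07 to 0.13 (mean 0.018, above 0.1 in 2 of 75 pairs). For arrays of different sets the mean was -0.005, with 2 of 300 pairs above 0.1. Of the 30 arrays 14 were closest to their own set. These weak correlations do not settle whether wells were paired by set. A fit with the set as a replicate block, chosen after seeing the data, lost no call of the set; it called 6 and 10 of the 17 probe sets at 20 µM at 24 and 48 h, and Abca1 probe set 4 gained a call at 48 h (-0.38 ± 0.13, adjusted p = 0.0305). Signals near background limit what the dim probe sets of Abcg1 and Srebf2 can show.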
